A study of Homo sapiens with 8 samples.

Results

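The mitochondrial chromosome of human cells carries 37 genes, and this is an account of their RNA in breast epithelial cells with and without the RNA-binding protein RBM6, before and after ionizing radiation (IR). The members were chosen by annotation: every row of the count table whose Ensembl identifier maps to a symbol beginning with MT- on the mitochondrial chromosome. All 37 were found among the 58233 rows of the table, namely 13 genes for proteins, called mRNAs below, 2 rRNAs and 22 tRNA genes. The mRNAs are counted by gene, also where genes overlap. RNA-seq was made from MCF10A-Hras cells, a non-tumorigenic human breast line that carries the H-Ras oncogene. The control cells were compared with RBM6-KO1, a single clone in which RBM6 was disrupted with Cas9, so that effects of RBM6 loss and of clonal origin cannot be told apart. Cells were either untreated or exposed to 5 Gy of X-rays and left for 12 h, which gave 4 groups of 2 biological replicates, called A and B, and 8 libraries in all.

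Mitochondrial DNA is transcribed from both strands by the polymerase POLRMT into long precursors. Enzymes cut out the tRNAs that sit between most of the other genes and so release the mRNAs and rRNAs. The mRNAs encode subunits of the respiratory complexes I, III and IV and of ATP synthase, while all proteins that transcribe, process and translate them come from nuclear genes. Most human mitochondrial mRNAs carry a short poly(A) tail, and that of MT-ND6 is known for lacking one. This matters here because the library kit selects polyadenylated RNA.

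The sequences below were read from the mitochondrial chromosome of GRCh38, the build of the files, and are written 5′ to 3′ on the strand of the gene. The first pair is shown because neighbouring genes share bases, so that reads there belong to both. Capitals mark the 46 bases shared by MT-ATP8 and MT-ATP6 (chrM:8507-8592, plus strand) and the 7 bases shared by MT-ND4L and MT-ND4 (chrM:10740-10786, plus strand).
MT-ATP8/MT-ATP6: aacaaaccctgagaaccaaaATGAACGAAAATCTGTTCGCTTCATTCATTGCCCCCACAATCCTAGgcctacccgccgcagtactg
MT-ND4L/MT-ND4: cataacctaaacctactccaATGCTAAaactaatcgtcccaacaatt

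The next set holds the last 24 bases of 4 genes that the results turn on, and it is shown because the poly(A) tail completes the stop codon of some of these mRNAs. Capitals mark the stop codon or the part of it that the DNA encodes. MT-ND1 (chrM:4239-4262, plus strand), MT-ND2 (chrM:5488-5511, plus strand) and MT-ND4 (chrM:12114-12137, plus strand) are 3 of 6 mRNAs whose annotated gene holds an incomplete stop. MT-ND6 (chrM:14149-14172, minus strand) is the only mRNA gene on its strand and ends in a full codon.
MT-ND1: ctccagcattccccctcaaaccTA
MT-ND2: ccccttttatactaataatcttaT
MT-ND4: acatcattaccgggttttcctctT
MT-ND6: attgagattgctcgggggaatAGG

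The gene counts of the libraries summed to 15355281 to 29832009. RBM6 had 1090 and 1283 counts in untreated control cells and 842 and 1520 after IR. RBM6-KO1 cells had 1093 and 929 counts of it untreated and 853 and 692 after IR. Normalized CPM scales read counts to a common library size. On this scale RBM6 had 66.82 and 68.75 in untreated control and 61.45 and 63.12 in untreated RBM6-KO1 cells. After IR it had 54.44 and 48.87 against 43.97 and 33.85. Its RBM6-KO1 libraries thus lay below the control libraries at each treatment, as did those of 23.9% of all genes untreated and 20.2% after IR. The mRNA was not lost, and gene counts do not check the deletion. The epithelial keratins KRT5 and KRT6A were high in every library, at 1060 to 1620 and 955 to 1360 normalized CPM. Other epithelial markers were lower, with KRT14 at 27.5 to 105, CDH1 at 12.2 to 49.4, TP63 at 15.8 to 46.7 and EPCAM at 5.28 to 26.7 normalized CPM, while the leukocyte marker PTPRC had at most 2 counts. The endothelial marker PECAM1 reached 6.32, the fibroblast marker COL1A1 14.4 and the hepatocyte marker ALB 0.675 normalized CPM, so that EPCAM overlapped the range of COL1A1 and PECAM1. In bulk RNA, fewer cells of a type and less RNA per cell cannot be told apart, and neither can more mitochondrial RNA and less nuclear RNA.

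The 37 genes took a larger share of the counts in RBM6-KO1 than in control cells, before and after IR. In untreated control cells their share was 8.40% in library A and 8.21% in library B. The untreated RBM6-KO1 libraries held 9.51% and 10.1%. After IR the share was 8.89% and 7.96% in control cells and 9.99% and 9.44% in RBM6-KO1 cells. The lowest RBM6-KO1 library thus stood above the highest control library. For untreated control library A the 95% Wilson interval, which covers counting error only, spanned 8.39% to 8.42%. On group means the share was 1.18 times that of control cells without IR and 1.15 times after IR. With 2 libraries against 2 an exact two-sided permutation test cannot give a p below 0.333, so no test was made of this share. The nuclear-retained RNAs MALAT1 and NEAT1 together took 0.814% and 0.663% of the counts in untreated control cells and 1.03% and 1.55% in the untreated clone. After IR they took 0.257% and 0.212% against 0.590% and 0.221%. They thus separated the untreated genotypes as well, and their part in the mitochondrial share was not tested.

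**Figure D1:**
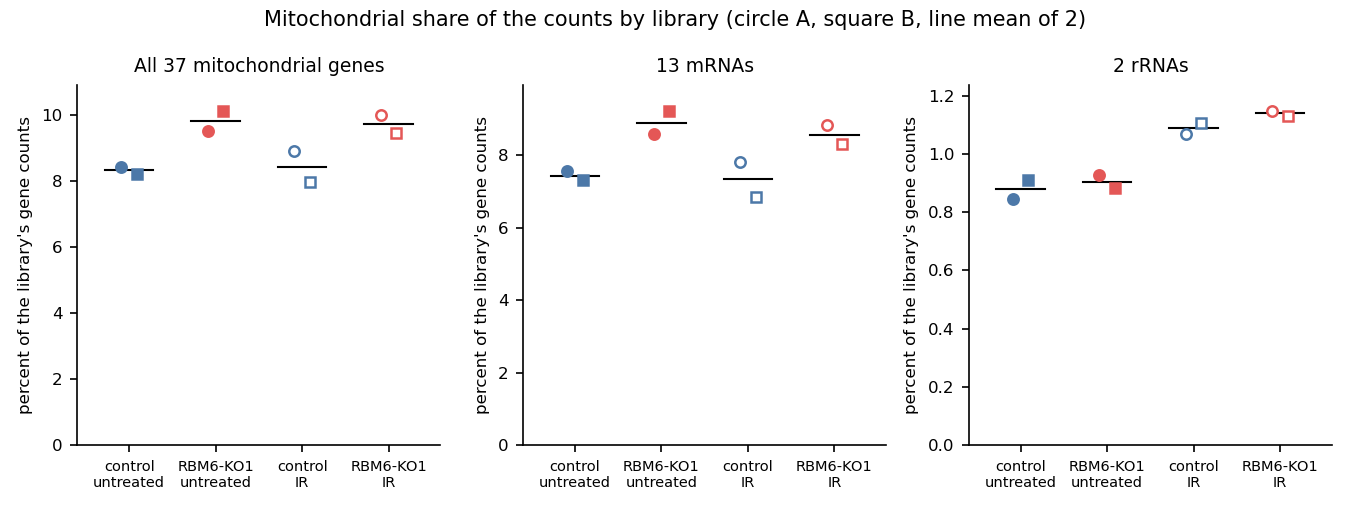
Percent of each library's gene counts on all 37 mitochondrial genes (left), the 13 mRNAs (middle) and the 2 rRNAs (right), on axes that start at 0. Circles are replicate A, squares replicate B, filled symbols untreated and open symbols IR, and lines the mean of 2: the RBM6-KO1 libraries (9.44% to 10.1%) lie above the control libraries (7.96% to 8.89%) at left, while at right the IR libraries lie above the untreated ones.

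The mRNAs carried the difference in share between genotypes. They held 7.55% and 7.30% of the counts in untreated control cells, against 8.57% and 9.21% in the untreated clone, a ratio of 1.197. After IR they held 7.81% and 6.85% against 8.83% and 8.30%, a ratio of 1.168. The rRNAs differed less between genotypes, by a ratio of 1.03 without IR and 1.05 with it. Their share lay between 0.846% and 0.927% in the 4 untreated libraries and between 1.07% and 1.15% in the 4 irradiated ones, without overlap. MT-RNR2 held most of these counts, as MT-RNR1 had 9.65 to 15.7 counts per 100 of MT-RNR2. On the log2 scale MT-RNR2 differed with IR by 0.31 in control and 0.37 in RBM6-KO1 cells, and MT-RNR1 by 0.10 and -0.13.

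Of the 37 genes, 16 passed the filter on low counts: all mRNAs, both rRNAs and the tRNA gene MT-TP. Another 20 tRNA genes had no count in any library. A count of 0 allows up to 3 counts, or 0.101 to 0.195 CPM, in a library. MT-TF, the tRNA for phenylalanine, had 0 to 3 counts. MT-TP, the tRNA for proline, had 850 to 1523 counts, and MT-TF and MT-TP are the tRNA genes that border the non-coding control region. How the authors' counting treated reads that span neighbouring genes is not given in the sources used here, so the zeros describe the table and not the tRNAs.

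Levels were ranked per length, as normalized CPM per kb, in untreated control cells. MT-CO2, a core subunit of cytochrome c oxidase (complex IV), was highest at 18963 ± 202 (SD, n = 2). MT-ND4 followed at 10652 ± 562, then MT-CO1 at 9913 ± 79.8, MT-CO3 at 8477 ± 225 and MT-ATP6 at 8359 ± 240. The rRNA MT-RNR2 stood at 4866 ± 304 and MT-CYB, the mitochondrial subunit of complex III, at 4466 ± 173. Below these came MT-ND1 (3664 ± 72.3), MT-ND6 (3456 ± 230), MT-ND2 (3063 ± 254), MT-ND3 (3020 ± 79.7), MT-ND5 (1929 ± 62.3) and MT-ND4L (1564 ± 25.1). The rRNA MT-RNR1 had 1230 ± 92.3, and MT-ATP8, which shares bases with MT-ATP6, the lowest level at 507 ± 30.5. Because the library kit selects polyadenylated RNA, this order describes the libraries. It does not rank rRNAs and mRNAs by their amount in cells. MT-CO3 and MT-ATP6, MT-ND1 and MT-ND6, and MT-ND2 and MT-ND3 overlapped in their library values, and the other neighbours in this order did not.

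The first comparison asks how these RNAs differ between the RBM6-KO1 clone and control cells without damage. All 13 mRNAs had a fitted level above that of control cells in untreated RBM6-KO1 cells, from 0.01 on the log2 scale for MT-ND1 to 0.41 for MT-ATP8, with a median of 0.33 (1.25-fold). The median over all 15556 genes tested was 0.01. None of the 16 genes passed an adjusted p of 0.05 in the edgeR quasi-likelihood test after Benjamini-Hochberg adjustment, with or without the 2-fold limit, where 3.12% and 6.12% of all genes did. The smallest adjusted p was 0.11, and 6 of the 16 had an unadjusted p under 0.05, as did 18.4% of all genes. Both RBM6-KO1 libraries lay above both control libraries for 13 of the 16 genes, against 23.8% of all genes. The 3 others were MT-ND1, MT-RNR1 and MT-TP. None of the 16 was lower without overlap, as 23.9% of all genes were. Without replicate B of the untreated RBM6-KO1 cells the median of the mRNAs was 0.17. Without replicate A of the same group 8 of the 16 genes passed the adjusted p, where 7.64% of all genes did.

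MT-ND2 and MT-ND4 encode membrane subunits of complex I, the NADH dehydrogenase at the entry of the chain. MT-ND2 (chrM:4470-5511) had 3379 and 3005 normalized CPM in untreated control cells, against 3880 and 4321 in the untreated clone. After IR it had 3487 and 2830 in control and 4339 and 3727 in RBM6-KO1 cells. All 4 RBM6-KO1 libraries were above all 4 control libraries, with log2 fold changes of 0.35 ± 0.14 (SE) without IR and 0.36 ± 0.18 after it.

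MT-ND4 (chrM:10760-12137) showed the same order. It had 15225 and 14131 normalized CPM in untreated control cells, 17759 and 20197 in the untreated clone, 14442 and 11450 in irradiated control cells and 16374 and 15777 in irradiated RBM6-KO1 cells. Its log2 fold changes were 0.36 ± 0.15 and 0.32 ± 0.17. MT-CO3, the third mitochondrial subunit of complex IV, was the other gene whose 4 RBM6-KO1 libraries (7581 to 8899) stood above its 4 control libraries (6086 to 7560). Non-overlap in this direction over both treatments was seen for 3 of the 16 mitochondrial genes and for 4.57% of all genes. None of the 16 was lower in this way, against 6.52% of all genes.

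**Figure D2:**
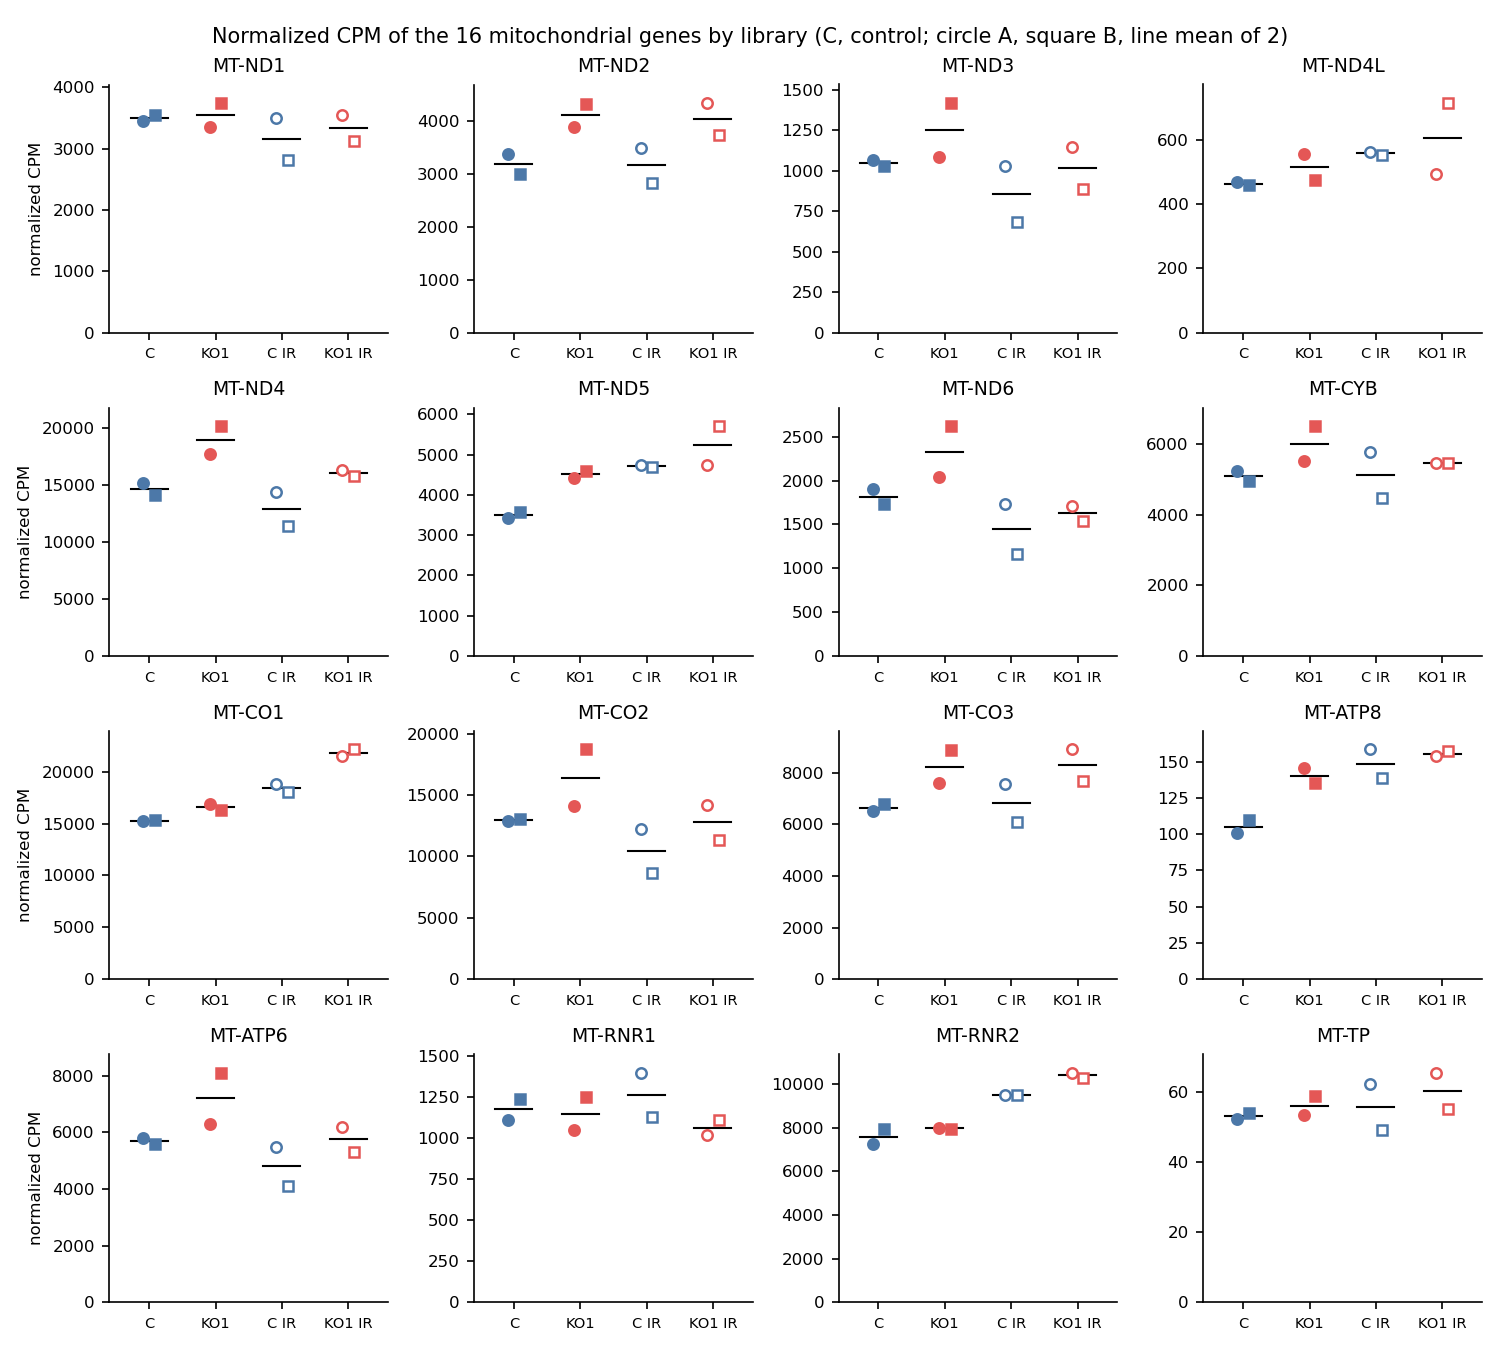
Normalized CPM of the 16 mitochondrial genes that passed the filter, 1 panel a gene on an axis from 0, for control (C) and RBM6-KO1 (KO1) cells without and with IR. Circles are replicate A, squares replicate B and lines the mean of 2; MT-ND2, MT-ND4 and MT-CO3 are the genes whose 4 RBM6-KO1 libraries all lie above the 4 control libraries.

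The remaining complex I subunits differed more in their spread. MT-ND5 had 3416 and 3576 normalized CPM in untreated control and 4421 and 4596 in untreated RBM6-KO1 cells, a log2 difference of 0.35 ± 0.14. After IR it had 4735 and 4692 against 4752 and 5709, a difference of 0.16 ± 0.16. MT-ND6 differed by 0.35 ± 0.15 without IR, MT-ND3 by 0.24 ± 0.15 and MT-ND4L by 0.14 ± 0.14. After IR these 3 differed by 0.17 ± 0.21, 0.26 ± 0.23 and 0.12 ± 0.20.

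Complex IV, complex III and ATP synthase gave like values. MT-CO2 had 12873 and 13068 normalized CPM in untreated control cells, against 14116 and 18716 in the untreated clone, so replicate B was well above replicate A in the clone. Its log2 fold change was 0.32 ± 0.16, that of MT-CO1 0.11 ± 0.14 and that of MT-CYB 0.22 ± 0.14. MT-ATP6 and MT-ATP8, which encode membrane subunits of ATP synthase, differed by 0.32 ± 0.15 and 0.41 ± 0.14. MT-ATP8 had 101 and 109 normalized CPM in untreated control cells against 145 and 135 in the clone, the largest untreated difference of the 13, though part of its reads cannot be told apart from those of MT-ATP6. After IR it had 158 and 139 against 154 and 157, and its difference of 0.07 ± 0.15 was the smallest of the 13. MT-CO1, MT-CO2, MT-CYB and MT-ATP6 differed by 0.25 ± 0.16, 0.30 ± 0.22, 0.10 ± 0.17 and 0.27 ± 0.19 after IR.

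MT-ND1, another membrane subunit of complex I, had the smallest fitted difference of the 13 without IR. It had 3454 and 3551 normalized CPM in untreated control cells, against 3352 and 3745 in the untreated clone, a log2 fold change of 0.01 ± 0.14. After IR it had 3499 and 2822 against 3542 and 3125 (0.09 ± 0.17). Within the mitochondrial mRNA counts, which does not depend on scaling against nuclear genes, MT-ND1 took 4.63%, 4.84%, 4.40% and 4.29% in the 4 control libraries and 4.01%, 3.90%, 3.99% and 3.74% in the 4 RBM6-KO1 libraries. It was the only one of the 13 whose share did not overlap between genotypes. Per 100 counts of its neighbour MT-ND2, it had 102, 118, 100.4 and 99.7 counts in control and 86.4, 86.7, 81.6 and 83.9 in RBM6-KO1 libraries. These ratios were noticed in the data and not tested.

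The fitted differences of both rRNAs between untreated genotypes were closer to 0 than the median of the mRNAs. MT-RNR1, the RNA of the small mitochondrial ribosomal subunit, had 1111 and 1236 normalized CPM in untreated control cells, against 1047 and 1247 in the untreated clone (-0.05 ± 0.14). After IR it had 1397 and 1127 against 1015 and 1111 (-0.24 ± 0.16), the only fitted value below 0 in that comparison. MT-RNR2, the RNA of the large subunit, had 7251 and 7920 against 8000 and 7955 without IR (0.06 ± 0.14), and 9492 and 9485 against 10517 and 10293 after it (0.14 ± 0.15). MT-TP differed by 0.07 ± 0.15 and 0.13 ± 0.19.

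**Figure D3:**
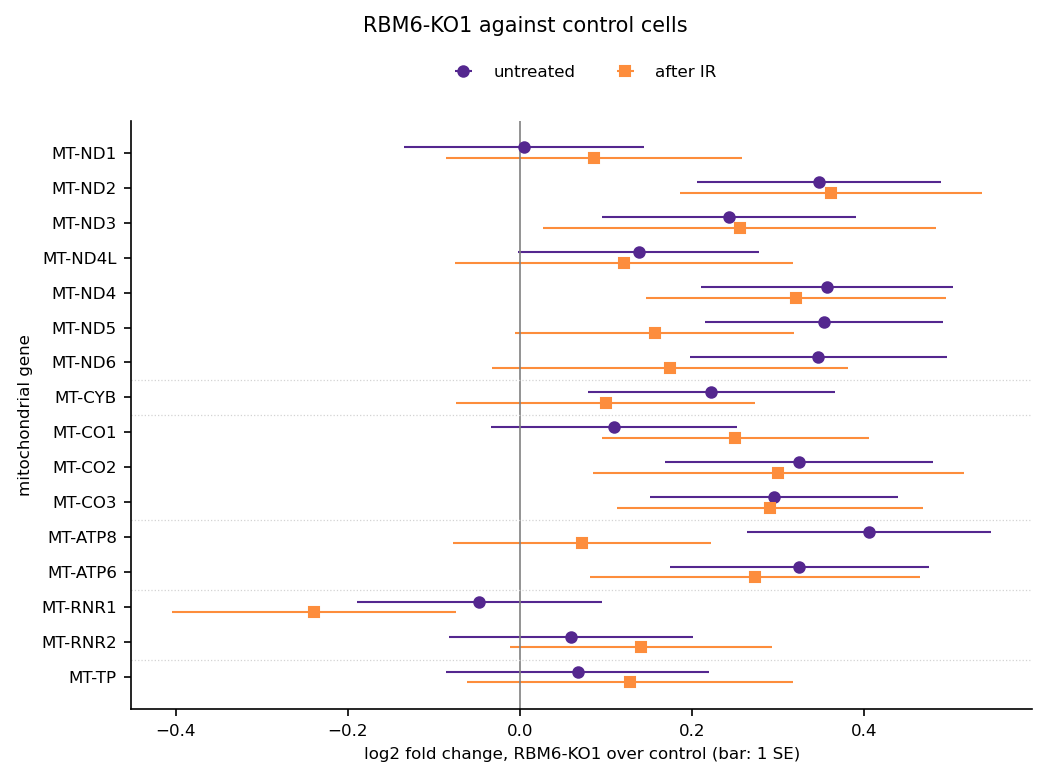
Log2 fold change of RBM6-KO1 over control cells for the 16 genes, untreated (circles) and after IR (squares), with bars of 1 standard error. All 13 mRNAs lie above 0 at both treatments (medians 0.33 and 0.25), MT-ND1 lies next to 0 without IR and MT-RNR1 lies below 0.

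The second comparison asks whether the genotypes differ after damage. The median of the 13 mRNAs was 0.25 on the log2 scale (1.19-fold), and all 13 were again above 0, against a median of 0.02 over 15587 genes. By edgeR's quasi-likelihood test none of the 16 passed the adjusted p, alone or with the 2-fold limit, against 1.21% and 1.17% of all genes. Their smallest adjusted p was 0.53, and none of the 16 had an unadjusted p under 0.05. Groups did not overlap, with RBM6-KO1 higher, for 6 of the 16 (MT-ND2, MT-ND4, MT-ND5, MT-CO1, MT-CO3 and MT-RNR2) and for 18.5% of all genes. They did not overlap in the other direction for MT-RNR1 alone, and for 20.2% of all genes. The irradiated control libraries decided the size of the median, which was 0.44 without replicate A and 0.07 without replicate B.

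Over both treatments, with IR as a term in 1 fit of all 8 libraries, MT-ND2 and MT-ND4 passed the adjusted p. Their log2 fold changes were 0.36 ± 0.10 (SE, adjusted p = 0.039 from edgeR with Benjamini-Hochberg adjustment) and 0.34 ± 0.10 (adjusted p = 0.0451). These are 12.5% of the 16 genes, near the 10.7% of all 16549 genes that passed, and neither reached the 2-fold limit that 3.72% of all genes met. The call on both was lost without any 1 of the 4 untreated libraries, with upper-quartile scaling and with the replicate letter as a block (adjusted p = 0.0506 and 0.0741 by edgeR). The additive fit uses the same libraries as the comparisons above and is no independent support for them.

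After IR, the mitochondrial mRNAs as a whole did not move one way. In control cells their median log2 fold change against untreated cells was -0.02, with 5 above and 8 below 0, and in RBM6-KO1 cells it was -0.11, with 4 above and 9 below. The medians over all genes tested were 0.02 and -0.01. The median in control cells was -0.18 without irradiated replicate A, where 9 of the 16 and 27.8% of all genes passed the adjusted p. It was 0.12 without irradiated replicate B, where 2 of the 16 and 5.91% of all genes did. None of the 16 genes passed the adjusted p in edgeR's test in control cells, with or without the 2-fold limit (3.59% and 5.72% of all genes), and none in RBM6-KO1 cells (3.11% and 5.67%). An unadjusted p under 0.05 was seen for 2 of the 16 in control and 3 in RBM6-KO1 cells, against 25.4% and 29.6% of all genes. The smallest adjusted p values were 0.088 for MT-ATP8 in control cells and 0.0747 for MT-ND6 in RBM6-KO1 cells.

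The fitted values of individual genes had different signs. MT-CO1 had 15200 and 15374 normalized CPM in untreated and 18813 and 18061 in irradiated control cells, and 16931 and 16345 against 21492 and 22152 in RBM6-KO1 cells. The log2 differences were 0.26 ± 0.20 and 0.38 ± 0.14 (adjusted p = 0.42 and 0.112 by edgeR), with both irradiated libraries higher in each genotype. MT-RNR2 was alike, at 0.31 ± 0.19 and 0.37 ± 0.14. MT-ND5 differed by 0.42 ± 0.18 and 0.20 ± 0.15.

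MT-CO2 had fitted values below 0 and did not pass the test in either genotype. It had 12239 and 8648 normalized CPM in irradiated control cells and 14194 and 11352 in irradiated RBM6-KO1 cells, with log2 differences from untreated cells of -0.32 ± 0.22 and -0.38 ± 0.18. In RBM6-KO1 cells the irradiated and untreated libraries overlapped. MT-ND6 had 1900 and 1729 untreated and 1732 and 1168 after IR in control cells, against 2041 and 2623 and then 1710 and 1541 in RBM6-KO1 cells. Its differences were -0.33 ± 0.20 and -0.54 ± 0.16. MT-ATP6 (-0.26 ± 0.20 and -0.34 ± 0.17) and MT-ND4 (-0.19 ± 0.21 and -0.26 ± 0.14) were also below 0, whereas MT-ATP8 (0.49 ± 0.16 and 0.13 ± 0.14) and MT-ND4L (0.26 ± 0.16 and 0.21 ± 0.19) were above. Below 0 as well were MT-ND3 (-0.30 ± 0.20 and -0.32 ± 0.18), MT-ND1 (-0.157 ± 0.185 and -0.11 ± 0.15), MT-ND2 (-0.02 ± 0.19 and -0.04 ± 0.15) and MT-CYB (-0.0008 ± 0.195 and -0.15 ± 0.15). MT-TP was above, at 0.06 ± 0.18 and 0.09 ± 0.16. The sign differed between genotypes for MT-CO3 (0.03 ± 0.19 and -0.005 ± 0.154) and MT-RNR1 (0.10 ± 0.18 and -0.13 ± 0.15).

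Both irradiated libraries were higher than both untreated ones for 5 of the 16 genes in control cells and for 4 in RBM6-KO1 cells, which compares with 29.4% and 32.6% of all genes. They were lower for 2 and 4 of the 16, against 27.7% and 29.5% of all genes. These shares lie near or below the background.

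**Figure D4:**
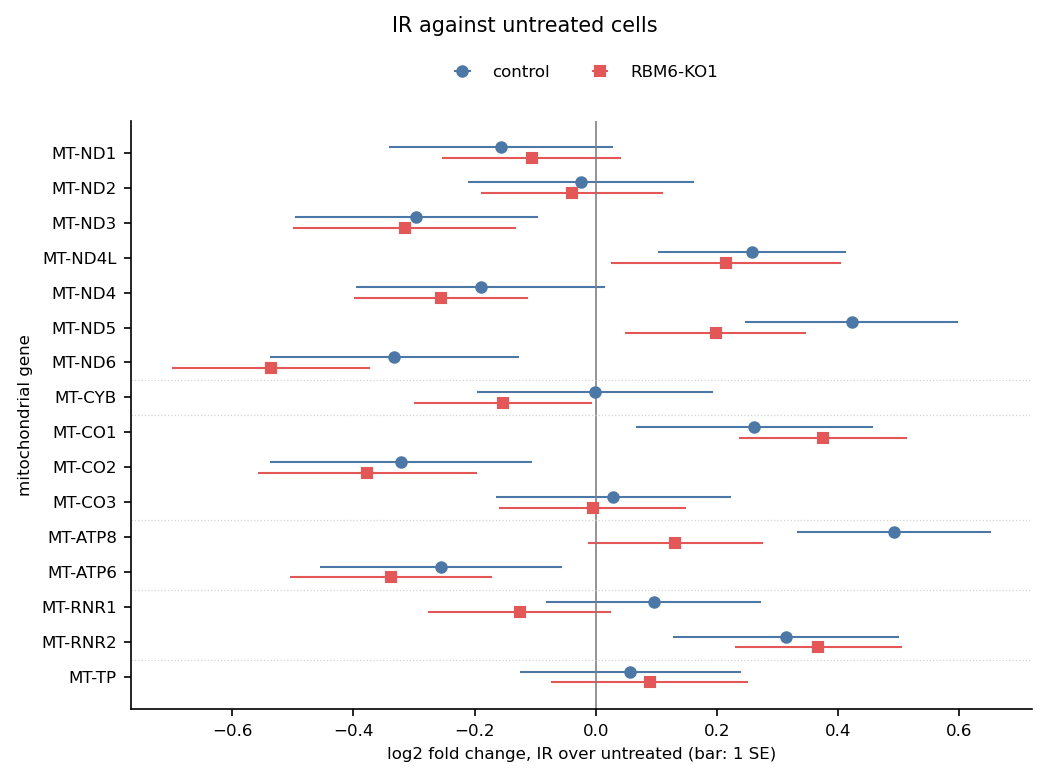
Log2 fold change of irradiated over untreated cells for the 16 genes, in control (circles) and RBM6-KO1 cells (squares), with bars of 1 standard error. MT-CO1, MT-ND5, MT-RNR2, MT-ATP8, MT-ND4L and MT-TP lie above 0 in both genotypes. MT-CO2, MT-ATP6, MT-ND1, MT-ND2, MT-ND3, MT-ND4, MT-ND6 and MT-CYB lie below 0 in both. MT-CO3 and MT-RNR1 differ in sign between genotypes, and no gene passed the adjusted p in either.

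The difference in IR response between genotypes was tested directly as an interaction over all 8 libraries. No mitochondrial gene passed, the smallest adjusted p being 1.0 in edgeR's test, and 0% of all 16549 genes passed by the adjusted p alone or with the 2-fold limit (0%), with 306 at an unadjusted p under 0.05. The median interaction of the 13 mRNAs was -0.05 on the log2 scale, from -0.35 for MT-ATP8 to 0.12 for MT-CO1.

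The mix of mitochondrial mRNAs differed between untreated and irradiated libraries. MT-CO1 took 20.4%, 21.0%, 20.2% and 17.0% of the mRNA counts in the 4 untreated libraries (control A and B, then RBM6-KO1 A and B). In the irradiated ones, in the same order, it took 23.7%, 27.5%, 24.2% and 26.5%. MT-ND5 likewise lay higher in all 4 irradiated libraries (5.35% to 7.14%) than in all 4 untreated ones (4.58% to 5.28%). MT-CO2, MT-ATP6, MT-ND4 and MT-ND6 lay lower in all 4, and the other mRNAs overlapped. By complex, ATP synthase mRNAs held between 7.71% and 8.58% of the mRNA counts in untreated and between 6.45% and 7.16% in irradiated libraries. Complex IV mRNAs held between 45.8% and 48.0% and then between 48.6% and 50.2%. These shares are descriptions without a test. They exist for the mitochondrial mRNAs alone, so no background over all genes stands beside them.

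Ratios between neighbouring genes show the same data without any scaling. Per 100 MT-CO1 counts, MT-CO2 had 84.7 and 85.0 counts in untreated control cells and 65.1 and 47.9 after IR. The RBM6-KO1 libraries showed 83.4 and 114.5 counts and then 66.0 and 51.3. Replicate B of each irradiated group was the lower one. MT-ND6 per 100 MT-ND5 counts followed, at 55.6 and 48.4, then 36.6 and 24.9, in control cells and at 46.2 and 57.1, then 36.0 and 27.0, in RBM6-KO1 cells. These genes lie next to each other on opposite strands, and the strand setting of the counting is not given in the sources used here, so reads from the 2 strands cannot be told apart.

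Within the overlapping pair of ATP synthase genes the shorter one took relatively more counts after IR. Genes of this pair and of the next share bases, so count ratios cannot show separate changes of their RNAs. Per 100 MT-ATP6 counts, MT-ATP8 had 1.73 and 1.96 counts untreated and 2.88 and 3.39 after IR in control cells, and 2.31 and 1.67, then 2.48 and 2.96, in RBM6-KO1 cells. MT-ND4L had 3.09 and 3.25 counts per 100 of MT-ND4 and then 3.90 and 4.84 in control cells, but in RBM6-KO1 cells the groups overlapped (3.13 and 2.35, then 3.02 and 4.54).

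A property of the libraries moved along with some of these ratios and opposite to others. Nuclear mRNAs whose longest annotated transcript is under 1000 bases took 5.25% and 5.85% of nuclear mRNA counts in untreated control cells and 5.05% and 3.66% after IR. In RBM6-KO1 cells they took 5.02% and 6.28% and then 4.95% and 3.84%. The libraries with the smallest share of short mRNAs, replicate B of both irradiated groups, were those with the fewest MT-CO2 per MT-CO1 and the fewest MT-ND6 per MT-ND5 counts. In the other direction, they had the most MT-ATP8 per MT-ATP6 and the most MT-ND4L per MT-ND4 counts. In each of these ratios the gene named first is the shorter one. The shares of MALAT1 and NEAT1 given above were also lower in all 4 irradiated than in all 4 untreated libraries. Among all libraries, untreated RBM6-KO1 replicate B had the largest share of short mRNAs and the most MT-CO2 per MT-CO1 counts. The part of the short mRNAs and of MALAT1 and NEAT1 in the results on genotype or IR was not tested.

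**Figure D5:**
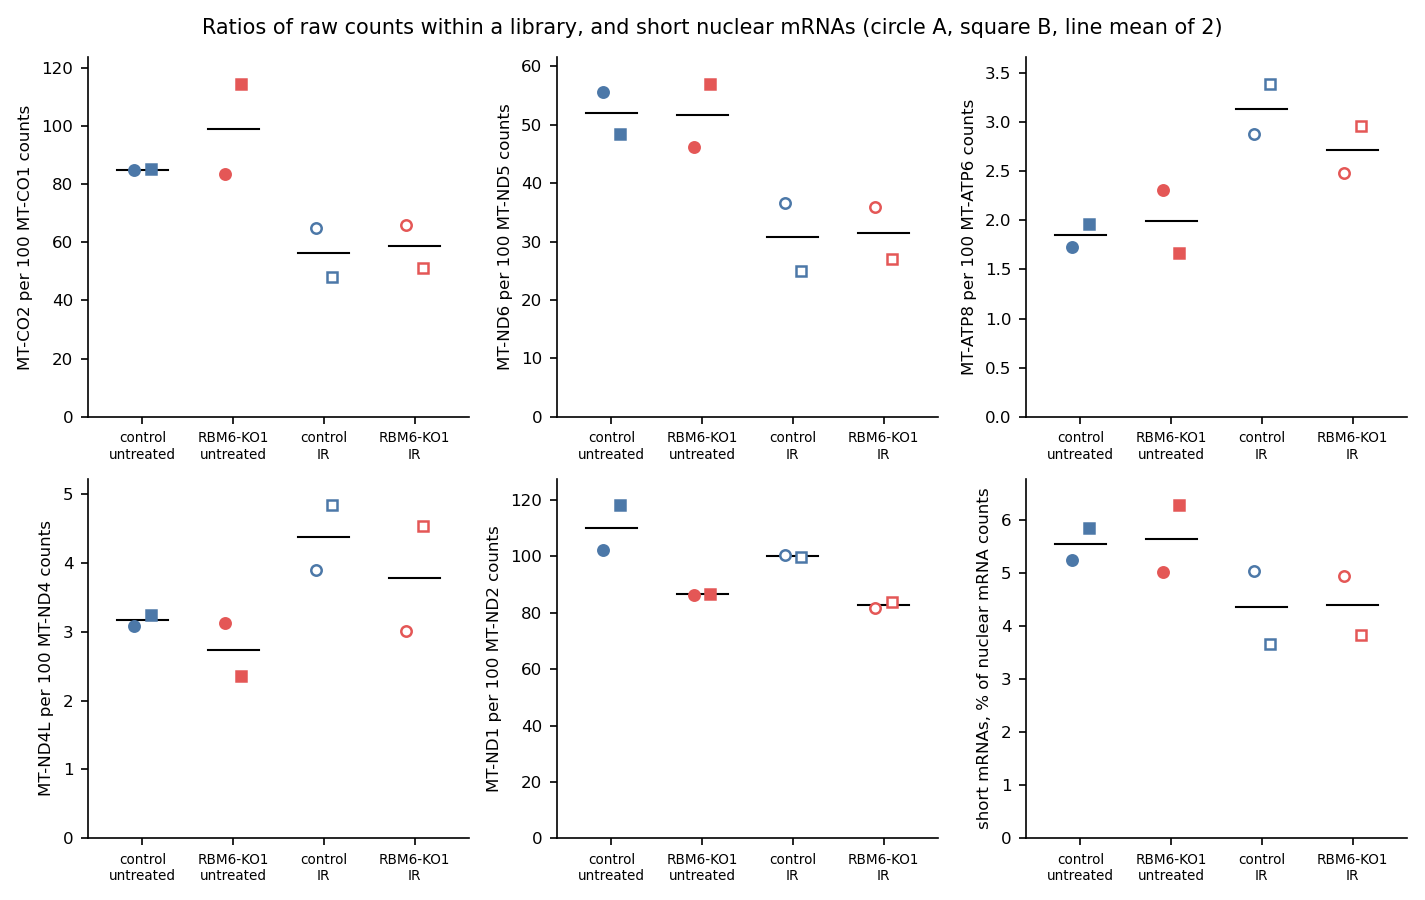
Raw counts of one mitochondrial gene per 100 counts of another in each library (5 panels), and the percent of nuclear mRNA counts on mRNAs under 1000 bases (lower right), on axes from 0. MT-CO2 per 100 MT-CO1 and MT-ND6 per 100 MT-ND5 lie lower in the irradiated libraries (open symbols), and MT-ND1 per 100 MT-ND2 lies lower in RBM6-KO1 (81.6 to 86.7) than in control libraries (99.7 to 118).

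Nuclear copies of mitochondrial DNA are a second place where such reads can be counted. Of 404 annotated copies of the mRNA genes, found by symbol, 88 had counts, and together they came to 1.85% to 2.29% of the mitochondrial counts. The 3 with the highest mean counts lie side by side on chromosome 1. MTATP6P1 (chr1:633696-634376) had 18510 counts on average, which is 17.0% of those of MT-ATP6. MTCO1P12 (chr1:631074-632616) had 6551 and MTCO2P12 (chr1:632757-633438) 3244, or 1.87% and 1.33% of those of MT-CO1 and MT-CO2. Their log2 fold changes between untreated RBM6-KO1 and control cells were 0.29, 0.30 and 0.50, beside 0.32 for MT-ATP6, 0.11 for MT-CO1 and 0.32 for MT-CO2. Of 15 copies tested in both genotype comparisons, 15 were above 0 without IR and 12 after it. Reads of such copies and of the mitochondrial genes cannot be told apart in the table. With the copies added, the mitochondrial share in RBM6-KO1 less that in control cells was 1.54 percentage points without IR, against 1.49 without them.

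Mitochondrial RNA levels depend on nuclear genes, which were followed in 9 lists of 324 genes written with earlier results of these data known. No listed gene passed the adjusted p by edgeR between genotypes before or after IR. In the fit over both treatments 4 passed as higher and 3 as lower, 2.19% of the 319 tested against 10.7% of all genes. Of these 7, the 6 given here were named after their values were seen. PNPT1, the mitochondrial polynucleotide phosphorylase that takes part in RNA decay, had 44.02 and 35.31 normalized CPM in untreated control cells and 57.6 and 54.3 in the clone. After IR it had 42.2 and 53.0 against 56.7 and 58.9, a log2 difference over both treatments of 0.39 ± 0.11. FASTKD2, an RNA-binding protein needed for mitochondrial ribosome assembly, was higher by 0.37 ± 0.10, TMEM126B, an assembly factor of complex I, by 0.34 ± 0.10 and DMAC2L, which is linked to ATP synthase, by 0.46 ± 0.12. SLC25A4, the ADP/ATP carrier, was lower at -0.37 ± 0.10, as was UQCC1, an assembly factor of complex III (-0.37 ± 0.10). Adjusted p values from edgeR ran from 0.033 for DMAC2L to 0.0493 for PNPT1. Under 16 other settings each kept its sign and passed in 4 to 10 of them.

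The transcription machinery itself gave no call. The polymerase POLRMT differed between untreated genotypes by 0.12 ± 0.14 on the log2 scale, its partners TFAM and TFB2M by 0.24 ± 0.18 and -0.08 ± 0.19, and the RNA-stabilizing pair LRPPRC and SLIRP by 0.27 ± 0.15 and 0.06 ± 0.16. The list of 10 genes linked to mitochondrial transcription, POLRMT among them, had a median of 0.22 without IR and 0.14 after it, with 7 of 10 above 0 each time. Its members with the smallest p were MTERF2 (0.49 ± 0.25) and MTERF1 (0.34 ± 0.25), of the family of termination factors, and neither passed the adjusted p.

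Medians of the other lists between untreated genotypes lay close to 0: 0.07 for RNA processing and decay (FASTKD1 at 0.41 ± 0.16), 0.00441 for upkeep of mitochondrial DNA (ENDOG at -0.50 ± 0.24), and -0.07 for regulators of biogenesis (MYC at -0.44 ± 0.14). Import and mass gave 0.01 (TOMM40 at 0.29 ± 0.15 and HSPA9 at 0.22 ± 0.14), assembly of the respiratory chain 0.02 (COX19 at -0.47 ± 0.20) and translation factors with tRNA synthetases 0.04 (MTFMT at -0.35 ± 0.19 and MRRF at 0.28 ± 0.15). The nuclear respiratory chain subunits, partners of the proteins that the 13 mRNAs encode, had a median of 0.01, with 38 of 73 above 0 (NDUFB2 at 0.35 ± 0.18). The mitochondrial ribosome had -0.02, with 40 of 85 above 0 (MRPS6 at -0.58 ± 0.19 and MRPL1 at 0.60 ± 0.21). The sign of these last 2 medians depended on the normalization. So the mitochondrially encoded mRNAs had a median of 0.33 where their nuclear partners had 0.01, a difference that was not tested.

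With IR some lists moved further from 0. The nuclear respiratory chain subunits had medians of -0.23 in control and -0.20 in RBM6-KO1 cells, with 58 of 73 and 57 of 73 below 0, and the mitochondrial ribosome had -0.09 and -0.19. Translation factors and tRNA synthetases had 0.22 and 0.20. Under the 4 other normalizations these medians kept their sign. Of all listed genes 1.88% passed the adjusted p in control and 1.89% in RBM6-KO1 cells, below the background given above for each. Named after their values were seen, RRM2B, a ribonucleotide reductase subunit, rose by 1.55 ± 0.26 and 1.88 ± 0.20 on the log2 scale. The ribosome recycling factor GFM2 and the alanyl-tRNA synthetase AARS2 rose in both genotypes too, while the tRNA-modifying enzyme TRMU and the complex I subunit NDUFA11 fell in both. ATP5ME fell in control cells and MYC rose in RBM6-KO1 cells. Under 13 other settings RRM2B passed in all, while ATP5ME passed in 8 and the others in 10 to 13. With the replicate letter as a block, MYC and AARS2 in RBM6-KO1 cells did not pass (adjusted p = 0.0649 and 0.0776 by edgeR). The share of short nuclear mRNAs given above was lower after IR on group means, and its part in the list medians was not tested.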

How the data were processed

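Total RNA was extracted with TRIzol and poly(A)-selected TruSeq libraries were sequenced. The deposited values are raw read counts per Ensembl gene in 1 table. The submitters' processing notes name STAR, DESeq2 and the build hg38, while the counter, annotation and strand setting are not given in the sources used here. Genes were named and placed with GENCODE v44 (GRCh38), and 57392 of 58233 identifiers had a symbol. Library totals were 15355281 to 29832009 counts.

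Counts were filtered with filterByExpr, TMM-normalized and tested with edgeR 4.0.16 (quasi-likelihood, R 4.3.3). Each comparison of 2 groups used its own 4 libraries, and the interaction and the genotype fit over both treatments used all 8. P-values were adjusted over all genes tested by the Benjamini-Hochberg method. A call needed an adjusted p under 0.05 and a 2-fold change, as in the study, and calls by adjusted p alone are given beside it. Scripts were tested on simulated data. Displayed CPM were TMM-normalized over 16549 genes. P-values rest on the spread between 2 biological replicates a group, moderated over all genes tested. In the genotype fit over both treatments that spread also takes in any difference in IR response between genotypes. No p-value covers differences between clones, and intervals and zero-count limits cover counting error only.

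The mitochondrial genes were chosen by annotation, and they and the gene lists were chosen with earlier results of these data known. All members that passed the filter were named. From each nuclear list the 2 genes with the smallest p between untreated genotypes were taken, together with POLRMT, TFAM, TFB2M, LRPPRC and SLIRP and the 3 nuclear copies with the highest mean counts; exceptions are marked in the text. Alternatives were DESeq2 1.42.0, other normalizations (DESeq2 size factors, upper quartile, total counts, nuclear genes only), other filters, all 8 libraries in 1 fit, a replicate block, a GC trend and leaving out each library. One listed nuclear gene is not reported here.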

Additional observations from a re-analysis of the deposited data

How the results depend on the processing

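No mitochondrial gene met the 2-fold rule under any setting. By adjusted p alone, the 2 calls over both treatments became 7 without a filter on low counts (7.14% of all genes), 1 when each library had to hold 10 counts or more, 0 with upper-quartile scaling and 0 with the replicate block, and ranged from 0 to 6 on leaving out a library. Without a filter 5 genes passed between untreated genotypes, 3 for IR in control and 4 for IR in RBM6-KO1 cells (4.33%, 6.86% and 9.40% of all genes), and DESeq2 called 1 in the latter (MT-ND6), against 12.8% of all genes. The median of the mRNAs ranged from 0.169 to 0.391 between untreated genotypes and from 0.0661 to 0.441 after IR on leaving out a library, and a GC trend gave 0.265 for the first. For IR in control cells it ranged from -0.182 to 0.116, and was 0.0234 without a filter. Differences of replicate A less B correlated across genes between the irradiated genotypes (r = 0.35) but hardly between the untreated ones (0.0789), and negatively between treatments (-0.181 and -0.257), and no label says that a letter marks a shared batch. With the letter as a replicate block the medians were 0.313, 0.251, -0.0295 and -0.107, and between irradiated genotypes 15.5% of all genes passed in place of 1.21%, with 0 of the 16. With crossed letters, added after seeing the data, 1 of the 16 passed for IR in control and 10 in RBM6-KO1 cells, against 25.8% and 44.4% of all genes. The sign turned for MT-ND1 between untreated genotypes with total-count scaling (-0.000676). Leaving out a library also turned signs. Between untreated genotypes the ranges were -0.064 to 0.0689 for MT-ND1 (also -0.0174), -0.165 to 0.0603 for MT-RNR1 (also 0.0445) and -0.00494 to 0.137 for MT-RNR2. After IR they were -0.0706 to 0.236 for MT-ND1 (also -0.0123), -0.0284 to 0.157 for MT-ATP8, -0.02 to 0.563 for MT-ND3, -0.0922 to 0.472 for MT-ND6, -0.083 to 0.282 for MT-CYB and -0.176 to 0.36 for MT-ND4L. For IR in RBM6-KO1 cells the range for MT-ND4L was -0.0636 to 0.476, and over both treatments that for MT-ND1 was -0.0246 to 0.104. The cause was not tested.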
